A study of Mus musculus with 3 samples.

Results

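The 8 brain long noncoding RNAs described here are Dlx6os1, Miat, Rmst, Malat1, Neat1, Sox2ot, Pantr1 and Snhg11. Members were taken by name, as probe sets that the platform's probe table assigns to 1 of these symbols and to no other gene. That gave 10 probe sets for 7 of the 8 genes, out of 22180 genes with a probe set of their own. Sox2ot had none, because its only probe set also carries the microRNA gene Mir1897. RNA was measured on 1-colour arrays in 3 cultures labelled biological replicates, of wild-type CD-1 mouse medial ganglionic eminence (MGE), the embryonic ventral forebrain region that produces many GABA-releasing interneurons. Tissue was taken at embryonic day 13 and grown with FGF2 (40 ng/ml), B27 and glutamine. AraC, which kills dividing cells, was added at 1 µM on day 5 and washed out after 24 h, and RNA was taken after a further 2 days. All 3 cultures share this treatment and form 1 group, so no gene can be called higher or lower than in another condition. The labels do not say whether the cultures came from separate litters, and p-values measure only the spread between these 3.

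Long noncoding RNAs are transcripts that are not translated into protein. Several of those described here stay in the nucleus: Neat1 is the scaffold of the nuclear bodies called paraspeckles, Malat1 collects in nuclear speckles that hold splicing factors, and Miat, also known as Gomafu, forms nuclear foci of its own in neurons. Others are transcribed beside or across genes of developmental transcription factors, as Dlx6os1 (Evf2) is at Dlx5 and Dlx6, Sox2ot at Sox2 and Pantr1 (linc-Brn1a) at Pou3f3. Rmst is a neural transcript that binds SOX2 in human cells, and Snhg11 hosts small nucleolar RNAs.

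All 7 measured long noncoding RNAs gave signal above background in the cultures, and 5 of them also passed the test against a threshold raised by 1 log2 unit (the margin of 1). Above background means that the mean of the 3 cultures exceeded 6.26 log2 units (limma, 1-sided moderated test, adjusted p under 0.05 over 22081 probe sets), the 95th percentile of 1440 probe sets of chemoreceptor genes of the nose and tongue, which stood for background. By the same rule 63.4% of 20751 genes were above background, and 47.6% with the margin of 1. By probe set it was 10 of 10 for the members and 62.4% of all. Among the 1926 tested genes that RefSeq classes as lncRNA, 489 (25.4%) were above background and 186 (9.66%) with the margin. The median of the gene means was 9.50 log2 units for the 7 genes, 5.82 for all lncRNA genes and 7.34 for all genes tested. Binding strength differs between probe sets, so levels of single genes are not compared with each other. With the threshold at the 99th percentile 6 of the 7 were above background, beside 49.9% of genes and 11.1% of lncRNA genes, and at the 90th all 7, beside 72.5% and 41.5%. With every culture above the threshold and no test it was 7, beside 64.5% and 26.9%. The 7 genes were chosen as known brain transcripts with results of these data in view, so their count is a description and no test of the list was made.

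Dlx6os1, the antisense transcript of the Dlx5 and Dlx6 locus, was above background and varied between cultures. It had 9.39, 10.08 and 10.12 log2 units in cultures 1, 2 and 3, a mean of 9.86 ± 0.41 (SD, n = 3; limma adjusted p = 3.09e-05). Cultures 2 and 3 lay close together and culture 1 lay below both. In the mouse this RNA is known to act on Dlx5, Dlx6 and Gad1 in the ventral forebrain. Dlx6, a homeodomain transcription factor whose gene overlaps Dlx6os1, had 7.78, 8.54 and 8.25 (adjusted p = 0.000240). Dlx6os2, a second noncoding gene that overlaps it, had 7.16, 7.74 and 7.43 (adjusted p = 0.000606). Without a record of the strand that each probe reads, signal of these overlapping genes cannot be fully separated. Dlx5, the next gene along, had 10.89, 11.22 and 11.15 (adjusted p = 1.73e-06), and Gad1, the enzyme that makes GABA, had 9.64, 10.67 and 10.37 (adjusted p = 5.07e-05). Like Dlx6os1, these genes were lowest in culture 1, but all of them were highest in culture 2, whereas Dlx6os1 was highest in culture 3. Dlx2, a ventral forebrain transcription factor of another chromosomal locus, had 10.09, 10.23 and 10.28 (adjusted p = 1.54e-06), also lowest in culture 1. Smarca4, the chromatin remodeller BRG1 to which the mouse RNA binds, had 11.18, 11.30 and 11.16. For Dlx1, also on the list of partners, no probe set named the gene alone. One that names Dlx1as and Dlx1 had 9.56, 9.44 and 9.61, lowest in culture 2. Of the 17 listed partners and neighbours of the long noncoding RNAs, all 15 that were measured were above background, also with the margin of 1, beside 63.4% and 47.6% of all genes.

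The DNA before the 2 starts that RefSeq (GRCm38.p6) gives for Dlx6os1 is shown because the product proteins of its neighbours, Dlx5 and Dlx6, bind the homeodomain core TAATT, and that of Snhg11 because it was the other long noncoding RNA with a wide spread. Each stretch runs from 250 bases before to 50 bases after the start, 5′ to 3′ on the gene's strand, and capitals mark TAATT or its reverse complement AATTA.
Dlx6os1 start 1 (chr6:6869484-6869783, minus strand): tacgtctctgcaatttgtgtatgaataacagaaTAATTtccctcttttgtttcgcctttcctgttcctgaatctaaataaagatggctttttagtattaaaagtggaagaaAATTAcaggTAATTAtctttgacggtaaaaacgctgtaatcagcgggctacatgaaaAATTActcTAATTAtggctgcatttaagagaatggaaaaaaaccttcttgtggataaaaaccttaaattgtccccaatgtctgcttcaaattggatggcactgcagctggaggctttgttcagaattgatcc
Dlx6os1 start 2 (chr6:6861634-6861933, minus strand): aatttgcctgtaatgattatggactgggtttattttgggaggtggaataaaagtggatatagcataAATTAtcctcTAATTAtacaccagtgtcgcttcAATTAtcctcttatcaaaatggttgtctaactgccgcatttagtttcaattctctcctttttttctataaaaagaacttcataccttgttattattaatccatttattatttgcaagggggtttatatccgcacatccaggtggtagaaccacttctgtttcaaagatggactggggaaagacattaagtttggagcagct
Snhg11 (chr2:158375463-158375762, plus strand): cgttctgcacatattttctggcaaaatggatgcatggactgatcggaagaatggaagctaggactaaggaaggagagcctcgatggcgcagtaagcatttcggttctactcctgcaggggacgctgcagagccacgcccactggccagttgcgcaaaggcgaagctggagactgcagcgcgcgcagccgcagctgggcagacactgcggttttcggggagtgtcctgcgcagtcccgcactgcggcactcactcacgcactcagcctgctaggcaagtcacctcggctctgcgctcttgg

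Counted on both strands, the core occurred 7 times before the first Dlx6os1 start and 4 times before the second. The run TAATTA holds the core once on each strand, so such a run counts as 2 overlapping matches. Of 32851 promoter stretches of the same length in the RefSeq table, 27% held at least 1 match, 0.14% held at least 7 and 1.65% held at least 4. The Snhg11 stretch held 0 matches, as did those of Miat and Malat1, the other genes of the 8 with an entry in the table. The stretches also differed in composition. They held 5 and 3 CpG pairs before the Dlx6os1 starts and 21 before Snhg11, with GC contents of 35.7%, 35.3% and 60%, beside medians of 7 pairs and 52.7% over all stretches. The core holds only A and T, and the shares of stretches with matches were not matched for GC content. A match describes the letters and is no evidence of binding.

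**Figure D1:**
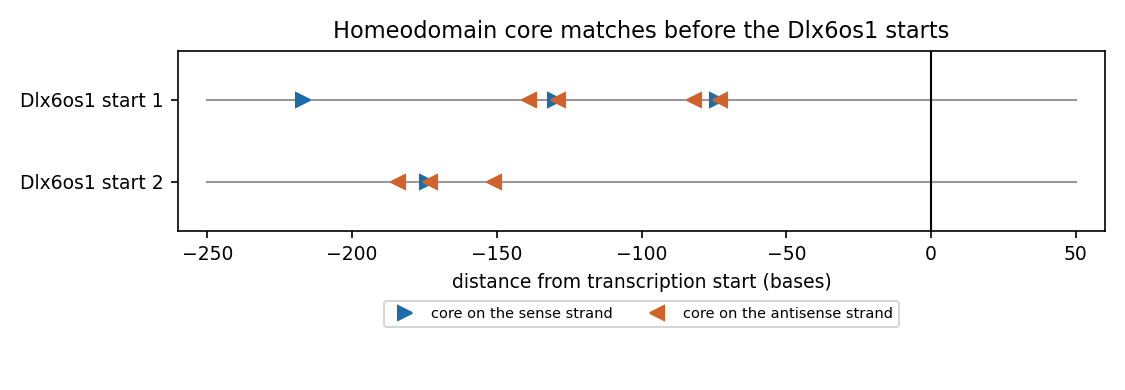
Positions of the homeodomain core on the sense strand (right-pointing marks) and on the antisense strand (left-pointing marks) by distance in bases from the 2 RefSeq starts of Dlx6os1 (vertical line at 0). All 7 matches at start 1 and all 4 at start 2 lie before the start.

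Snhg11, a host transcript of small nucleolar RNAs, was above background on both of its probe sets, which disagreed in level and in spread. The higher probe set had 9.14, 9.90 and 10.20 log2 units in cultures 1, 2 and 3, a mean of 9.75 ± 0.54 (SD, n = 3; limma adjusted p = 8.77e-05). The other had 7.53, 7.52 and 7.70, a mean of 7.58 ± 0.10 (adjusted p = 3.20e-05). The range over cultures was thus 1.05 log2 units on one probe set and 0.18 on the other, and both were highest in culture 3. On the higher one culture 1 stood apart, as it did for Dlx6os1. Of the 13155 genes above background, 263 (2%) had culture 1 at least 0.5 log2 units below both other cultures, Dlx6os1 and Snhg11 among them, and 12% had a range over 0.5. Its neighbours did not share this pattern. Snhg17, the nearest gene on one side and itself a small nucleolar RNA host, had 8.60, 8.59 and 8.28 on its highest probe set, and Ralgapb, a Ral GTPase regulator on the other side, had 10.01, 10.22 and 10.05. Both were above background.

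The genes whose culture pattern lay nearest to Dlx6os1, by the Euclidean distance between deviations from each gene's own mean over the 3 cultures, were Stxbp2, Gabra2 and Clgn. Stxbp2, a syntaxin-binding protein of vesicle fusion, had 9.03, 9.73 and 9.80 (distance 0.024 log2 units). Gabra2, a GABA-A receptor subunit, had 10.44, 11.11 and 11.11 (0.047), and Clgn, a chaperone of the endoplasmic reticulum, had 7.08, 7.70 and 7.77 (0.051). With only 3 cultures many genes lie close, and 25 of 13154 were within 0.1 of Dlx6os1. For the higher Snhg11 probe set 0 genes were within 0.1. The nearest were Rerg, a Ras-like growth inhibitor (6.95, 7.82 and 7.97, distance 0.11), Clvs2, a clavesin of neuronal endosomes (6.28, 7.18 and 7.53, distance 0.14), and Cstl1, a cystatin-like gene (6.63, 7.35 and 7.47, distance 0.16).

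Markers of cell types also differed between the cultures, neuronal ones being mostly lowest and glial ones mostly highest in culture 1. Of the 13155 genes above background, 42.4% were lowest in culture 1. Among all 20751 genes tested, 7734 were lowest and 6341 highest there. All 9 measured markers of GABA neurons and the MGE were lowest in culture 1, some of them by little. Their median deviation was -0.19 log2 units there, 0.16 in culture 2 and 0.08 in culture 3. Gad2, which also makes GABA, had 10.44, 10.90 and 10.88, and Slc32a1, the vesicular GABA transporter, had 8.39, 9.16 and 8.95. Of 9 pan-neuronal markers 7 were lowest in culture 1, among them Tubb3 (11.61, 11.92 and 11.84), a neuronal tubulin, and Syt1 (12.32, 12.91 and 12.70), a calcium sensor of synaptic vesicles. Dcx, a microtubule protein of young neurons, hardly moved (11.66, 11.63 and 11.63). All 7 astrocyte markers were highest in culture 1, with median deviations of 0.43, -0.46 and 0.04 in cultures 1, 2 and 3, as were 7 of 7 progenitor and cell cycle markers (0.20, -0.07 and -0.03) and 7 of 8 oligodendrocyte lineage markers (0.12, -0.06 and -0.02). Gfap, an astrocyte filament protein, had 8.51, 6.64 and 8.08, and Aqp4, the astrocyte water channel, had 8.74, 7.53 and 8.34. Gpr17, a receptor of oligodendrocyte precursors, had 10.75, 9.42 and 10.06, and Hes5, a Notch target of progenitors, had 10.27, 9.32 and 9.92. Dlx6os1 and the higher Snhg11 probe set were low in culture 1 like most neuronal markers, where most glial and progenitor markers were high, and the part of these markers in that spread was not tested. In a whole culture, fewer cells of a type and less RNA per cell cannot be told apart.

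**Figure D2:**
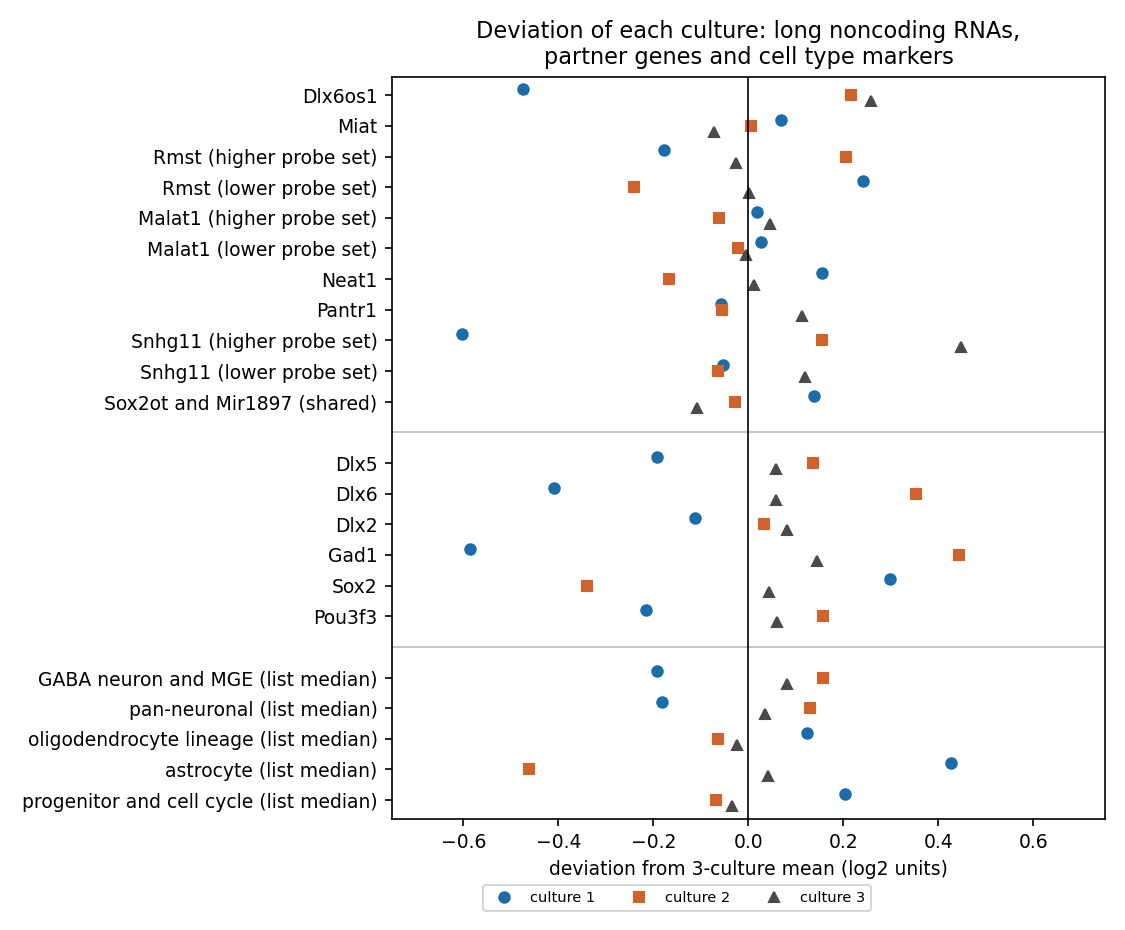
Deviation of each culture from the 3-culture mean (log2 units, horizontal axis) for the long noncoding RNAs, for 6 partner genes and for the median of 5 marker lists. In culture 1, Dlx6os1, the higher Snhg11 probe set, Gad1 and both neuronal medians lie left of 0, and the astrocyte, oligodendrocyte and progenitor medians lie right of 0.

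Sox2ot could not be measured alone. Sox2, the progenitor transcription factor whose gene overlaps Sox2ot, had 11.29, 10.66 and 11.04 log2 units (mean 11.00 ± 0.32, adjusted p = 5.94e-06). It was highest in culture 1 and lowest in culture 2. Ybx1, a nucleic acid-binding protein to which mouse Sox2ot binds, had 9.74, 9.80 and 9.80.

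Pantr1, the noncoding neighbour of Pou3f3, was above background with little spread. It had 9.45, 9.45 and 9.62 log2 units (mean 9.50 ± 0.10, adjusted p = 2.05e-06), so culture 3 was slightly above the other two. Pou3f3 (BRN1), a POU-domain transcription factor of forebrain neurons, had 9.92, 10.29 and 10.20 (adjusted p = 3.33e-06), with culture 1 lowest. Its paralogue Pou3f2 (BRN2) had 8.96, 8.77 and 8.75, with culture 1 highest. On the far side of Pou3f3 the noncoding gene 2900092D14Rik had 11.31, 11.39 and 11.36 (adjusted p = 1.37e-06). No probe set carried the symbol of the related transcript Pantr2.

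Rmst was above background on both probe sets that carry its name, by a small distance, and the probe sets ordered the cultures in opposite ways. The strand that each reads is not given, and the lower one, numbered among plus-strand genes as described for Malat1, may not read Rmst. The higher one had 7.08, 7.46 and 7.23 log2 units (mean 7.26 ± 0.19, adjusted p = 0.000336), with culture 2 highest. The lower one had 6.83, 6.35 and 6.59 (mean 6.59 ± 0.24, adjusted p = 0.0294), with culture 2 lowest. The lower one was no longer above background without culture 1 (adjusted p = 0.0714) or without culture 3 (0.118). At the 99th percentile of the background probe sets neither was (adjusted p = 0.154 for the higher), nor with the margin of 1. The range thus depends on the probe set: it was 0.38 on the higher one and 0.049 on the mean of both.

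The 2 microRNA genes at Rmst gave no signal above background. The array's probe sets stand for the genes and do not measure the mature microRNAs, whose sequences (RefSeq, GRCm38.p6, minus strand) are shown with the seed, bases 2 to 8, in capitals.
mmu-miR-1251-5p (chr10:92137190-92137210): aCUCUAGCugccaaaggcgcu
mmu-miR-135a-5p (chr10:92072141-92072163): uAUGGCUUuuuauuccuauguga
The seeds of this pair differ. Mir1251, which overlaps Rmst, had 5.15, 5.14 and 5.30 log2 units (adjusted p = 1), and Mir135a-2, the next gene beside Rmst, had 3.23, 3.23 and 3.08 (adjusted p = 1). On the other side the noncoding gene Gm20757 had 4.78, 4.67 and 4.68 (adjusted p = 1). All 9 of these values lay below the threshold. All 6 values of the probe sets that carry the name of Rmst lay above it, although the lower probe set may not read Rmst. Nedd1, the nearest protein-coding gene on that side, needed for the mitotic spindle, had a mean of 7.55 ± 0.14 (adjusted p = 6.21e-05). Hnrnpa2b1, an RNA-binding protein partner of RMST in human cells, had 10.82, 10.52 and 10.74 (adjusted p = 1.74e-06).

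Malat1 differed by at most 0.11 log2 units between cultures on either probe set that carries its name, although the lower one may not read Malat1. Its higher probe set had 12.82, 12.74 and 12.85 log2 units (mean 12.80 ± 0.06, adjusted p = 1.37e-06) and its lower one 8.82, 8.77 and 8.79 (mean 8.79 ± 0.02, adjusted p = 2.11e-06). Both spreads were below the median SD of 0.13 over all genes tested. Malat1 is transcribed from the minus strand, and of the 20 probe sets numbered nearest to the higher one on the platform, 16 belonged to minus-strand genes, 0 to plus-strand genes and 4 had no strand in the RefSeq table. Around the lower one 16 belonged to plus-strand genes, 1 to a minus-strand gene and 3 had none. The Rmst probe sets showed the same split, with 14 minus-strand and 0 plus-strand genes around the higher and 15 plus-strand and 1 minus-strand gene around the lower. Mir1251, which overlaps Rmst, lies on the minus strand. For both Snhg11 probe sets 18 of 20 were plus-strand genes, the strand of Snhg11, and 0 were minus-strand. The table used here does not state which strand a probe set reads, so whether the lower Malat1 and Rmst probe sets read these transcripts was not tested.

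Neat1, the neighbour of Malat1, was above background by 1.13 log2 units. It had 7.55, 7.22 and 7.40 in cultures 1, 2 and 3 (mean 7.39 ± 0.16, adjusted p = 0.000133) and was not above background with the margin of 1 (adjusted p = 0.190). Culture 1 was highest and culture 2 lowest, as for the astrocyte, oligodendrocyte lineage and progenitor and cell cycle medians given above. The part of these markers in the Neat1 values was not tested. Frmd8, a FERM-domain protein on the far side of Neat1, had 9.09, 8.83 and 8.74 (adjusted p = 8.98e-06).

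Transcripts for proteins of the bodies that Neat1 and Malat1 occupy were all above background where measured. For paraspeckles this held for 11 of 11 genes, all of them also with the margin of 1. Nono (11.46 ± 0.04), Sfpq (9.45 ± 0.06) and Pspc1 (9.24 ± 0.02), the core DBHS proteins, varied little, and Ewsr1 (9.80 ± 0.18) and Tardbp (9.30 ± 0.15), RNA-binding proteins also tied to neurodegeneration, varied most of the 11 (all SD, n = 3). Rbm14 and Hnrnph3 were not measured by a probe set naming them alone. For nuclear speckles it held for 13 of 13, among them the splicing factors Srsf1 (10.00 ± 0.06), Srsf2 (11.69 ± 0.04), Srsf3 (10.35 ± 0.08) and U2af2 (10.45 ± 0.11) and the speckle scaffold protein Srrm2 (12.16 ± 0.10). The median SD of a gene was 0.06 in both lists, beside 0.13 over all genes tested. By the same rule 63.4% of all genes were above background, and 47.6% with the margin of 1. These values are RNA signals, and no protein was measured.

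Miat varied little and fell slightly from culture 1 to culture 3. It had 8.68, 8.62 and 8.54 log2 units (mean 8.61 ± 0.07, adjusted p = 3.44e-06), highest in culture 1, with an SD below the median of 0.13 over all genes tested. Its known RNA-binding partners were above background and varied more, with the exception of Sf1. Sf1, the splicing factor that recognises the branch point, had 10.94, 10.96 and 10.90. Celf3, a splicing regulator of neurons, had 9.87, 10.59 and 10.14, lowest in culture 1, and Qk, a splicing regulator of glia and progenitors, had a mean of 12.05 ± 0.25 and was highest there, at 12.32. The noncoding neighbour 1700028D13Rik was not above background (4.55, 4.89 and 4.90).

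Other long noncoding RNAs were listed by kind. For each count, the share over all lncRNA genes was 25.4% (9.66% with the margin of 1) and over all genes 63.4% (47.6%). In the small nucleolar RNA hosts 16 of 17 measured genes were above background (13 with the margin of 1), among them Snhg1 (8.62 ± 0.08), Snhg3 (8.19 ± 0.04), Snhg4 (8.47 ± 0.19), Snhg12 (7.34 ± 0.26) and Snhg20 (8.87 ± 0.21). Snhg9 (5.45 ± 0.01) was the exception. Of the imprinted and X inactivation transcripts 9 of 9 were above background (7 with the margin), among them Rian (10.76 ± 0.24) and Peg13 (9.59 ± 0.36), imprinted transcripts of brain, Kcnq1ot1 (8.30 ± 0.14), which silences an imprinted cluster, and Xist (10.59 ± 0.37), which coats the inactive X chromosome. Meg3, an imprinted tumour suppressor RNA, had 6.97, 7.07 and 6.98 on the probe set of its own. A probe set that names Meg3 and Mir770 had 10.21, 10.58 and 10.56, and one that names Meg3, Mir1906-1 and Mir1906-2 had 10.07, 10.20 and 10.34. Rian and Peg13 were lowest in culture 1, at 10.48 and 9.18, and Xist in culture 2, at 10.18. H19 and Gas5 had no probe set to themselves. The one that names H19 and Mir675 had a mean of 6.66 ± 0.06, and the one that names Gas5 and Mir5117 had 6.95 ± 0.11. Without culture 2, Snhg18 (adjusted p = 0.0564) and Airn (0.0828) were not above background, against 0.00373 and 0.00729 with all cultures.

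Among other neural long noncoding RNAs 13 of 15 were above background (11 with the margin), beside 25.4% of all lncRNA genes (9.66%) and 63.4% of all genes (47.6%). Tug1, needed for retinal development in mouse, was nearly constant (11.17 ± 0.05), and Six3os1, the antisense neighbour of the forebrain factor Six3, had 9.37, 8.99 and 8.89. Lncpint, a p53-induced transcript, had 8.24, 9.09 and 8.94, lowest in culture 1, and Mir99ahg, a microRNA host, had 8.67, 7.82 and 8.01, highest there. Otx2os1, the antisense neighbour of Otx2, was not above background (5.76 ± 0.31), and neither was Crnde (6.25 ± 0.04). Of the 15 measured, 10 were highest and 4 lowest in culture 1. Across all 20751 genes, 6341 were highest and 7734 lowest there.

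Long noncoding RNAs known from tissues other than forebrain were not above background. Hotair (5.72 ± 0.04), a HOX cluster transcript of posterior tissue, Fendrr (6.11 ± 0.10), of lung and heart mesoderm, and Bvht (3.70 ± 0.36), of cardiac progenitors, were below the threshold in every culture. The count was 0 of 7 measured by limma, 0 at an unadjusted p under 0.05 and 0 when every culture had to lie above the threshold with no test. Of all lncRNA genes, limma called 25.4% at the same threshold. With the threshold at the 90th percentile the count was 2 of 7, beside 41.5% of all lncRNA genes.

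**Figure D3:**
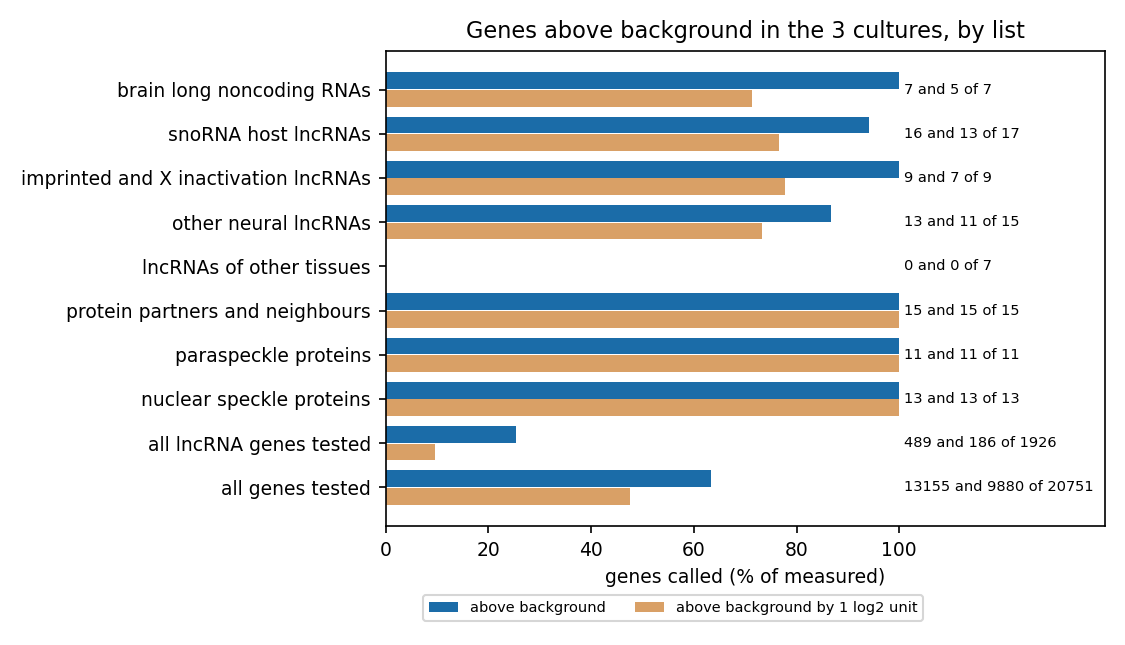
Share of measured genes above background (upper bars) and above it by 1 log2 unit (lower bars), in percent, for each list, for all lncRNA genes and for all genes tested, with the counts at the right. The brain long noncoding RNAs stand at 7 and 5 of 7, all lncRNA genes at 489 and 186 of 1926.

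The label of purified interneurons was checked against markers. Of all genes tested, 63.4% were above background, and 47.6% with the margin of 1. All 9 GABA and MGE markers and all 9 pan-neuronal markers measured were above background, and so were 8 of 8 oligodendrocyte lineage markers, among them Pdgfra, Olig1 and Olig2, 6 of 7 astrocyte markers and 7 of 7 progenitor and cell cycle markers, Nes and Vim included. Of 5 cortical glutamatergic markers 0 were called, by limma or at an unadjusted p under 0.05. Slc17a7 had 6.11, 7.22 and 6.63 log2 units and Slc17a6 had 6.11, 7.01 and 6.07. Neurod6 had 5.63, 6.28 and 5.60. The means of Slc17a7 (6.65) and Slc17a6 (6.40) lay above the threshold and that of Neurod6 (5.84) below it. The missing calls are therefore no evidence that such transcripts were absent. Of the other markers, 3 of 6 microglial and 6 of 6 endothelial and mural ones were called, none with the margin of 1. Markers of neurons and of glia were thus read in the same arrays, and which cells gave the long noncoding RNA signals cannot be told. Culture medians were 6.57, 6.52 and 6.56 log2 units. With 1 array a culture, no difference between cultures was tested.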

How the data were processed

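Total RNA (100 ng per culture) was labelled with biotin and hybridised to 1 array per culture. The authors deposited log2 signals per probe set, made with oligo and RMA per the submitters' processing notes, with versions and settings not given in the sources used here. RMA corrects background, normalises between arrays and summarises probes, so spread between arrays is partly removed. The table holds 41345 probe sets, of which 23521 carry 1 gene symbol in the platform's probe table, 1814 several and 16010 none.

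Background came from 1440 receptor probe sets (median 4.37, 95th percentile 6.26 log2 units). limma 3.58.1 in R 4.3.3 tested an intercept against that threshold over 22081 probe sets of other genes, 1-sided, with Benjamini-Hochberg adjustment. One called probe set sufficed to call a gene, whose printed value comes from its highest probe set. The call was tested on simulated data. The members, gene lists and tests were chosen with earlier results of these data known. Named were the members, their listed partners and nearest neighbours, lead noncoding RNAs, the first 3 and the 2 most variable called genes of other lists, the called genes of lists with at most 5, genes whose call changed without 1 culture, and the 3 genes nearest in pattern. Dlx6os2, Mir1251, 2900092D14Rik, Snhg9 and Crnde, and listed genes given only as not measured, were named after their values were seen. RefSeq (GRCm38.p6) gave neighbours, gene types and sequences. No build is named for the array values, so gene coordinates are not given. Arrays give no read depth, and their number limits precision.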

Additional observations from a re-analysis of the deposited data

Results flagged for a closer look

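The probe set that carries both Sox2ot and Mir1897, used in no comparison above because it names more than 1 gene, gave a signal far above the background probe sets. It had 10.54, 10.37 and 10.29 log2 units in cultures 1, 2 and 3, with a mean of 10.40 ± 0.13 (SD, n = 3), which is 4.14 above the threshold. When probe sets with several symbols were added to the fit, a choice made after seeing the data, its limma adjusted p was 1.59e-06. In the RefSeq table Mir1897 overlaps Sox2ot, and the share of either gene in the signal was not tested. The mature sequence RefSeq gives for that microRNA (GRCm38.p6, chr3:34638511-34638532, plus strand), with its seed in capitals, is uCAACUCGuucuguccggugag.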

How the results depend on the processing

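The count of 7 long noncoding RNAs above background held under 11 of 13 alternatives, and was 6 at the 99th percentile, without Rmst, and 5 with a margin of 1, without Rmst and Neat1. Over the alternatives other than thresholds and margin, the share of all genes called was 60.9% to 66.4%. The 11 included the 90th percentile, quantile normalization, median centring, an intensity trend, dim probe sets left out, the mean of a gene's probe sets, and each culture left out. The count over all lncRNA genes was 799 at the 90th percentile, 213 at the 99th and 186 with the margin of 1. At the 90th percentile 2 of 7 noncoding RNAs of other tissues, 3 of 5 cortical and 5 of 6 microglial markers were called. The share there was 72.5% of all genes and 41.5% of all lncRNA genes. At the 99th percentile 0 microglial and 1 endothelial or mural marker were called, and with the margin of 1 both counts were 0. The shares of all genes were 49.9% and 47.6%. Leaving out 1 culture gave 0 to 1 cortical markers, the 1 without culture 1. It gave ranges over the remaining cultures of 0.042 to 0.73 for Dlx6os1, 0.062 to 0.14 for Miat, 0.15 to 0.38 for Rmst, 0.027 to 0.11 for Malat1, 0.14 to 0.32 for Neat1, 0.00211 to 0.17 for Pantr1 and 0.29 to 1.05 for Snhg11 (log2 units). The lowest came without culture 1 for Dlx6os1 and Snhg11, so their spread rests on that culture, and by construction a range over fewer cultures cannot be larger. On the mean of both probe sets the range of Rmst was 0.049 and that of Snhg11 0.61. No paired analysis was possible because the series has 1 group.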
